A study of Brassica napus with 6 samples.

Results

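The 200 genes described here were expressed in vacuolated microspores of Brassica napus (oilseed rape) and were higher in each of 3 heat-treated cultures at day 4. They were chosen from a raw count table with 104573 rows. Levels are in CPM, the counts of a gene for each 1000000 counts of its library. A gene had to reach 5 CPM in each of the 3 microspore libraries, which 27696 genes did. Genes in the top 100 of HS4d replicate 1 and also of HS4d replicate 2 were left out, which removed 18 of these. The remaining 27678 genes were ordered by the lowest CPM in the heated cultures divided by the highest CPM in the microspores, and the first 200 were taken. A gene's place below is its place in this order, from 1 for the largest ratio.

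The 6 libraries came from line DH-4079 of cultivar Topas, and the replicates are called biological in the series' design text. The HS4d group has 3 libraries from microspore cultures heated at 32 °C from their start, collected at day 4, when they held both microspores and proembryos. The VM group has 3 libraries from untreated vacuolated microspores, the late unicellular stage, at day 0. Both groups share the line and the way the microspores were isolated from flower buds. No unheated day 4 culture is among the 6 libraries, so an effect of heat cannot be told apart from one of culture time or of development.

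A vacuolated microspore is a single immature male cell with a large vacuole, close to the division that starts pollen formation. In Brassica napus, heat given at this stage turns some microspores away from pollen and towards division as an embryo, while others in the same dish stop or go on towards pollen. A day 4 culture is therefore a mixture, and in RNA from a whole culture a larger share of cells of a type and more RNA per cell cannot be told apart. Brassica napus carries 2 related genomes, A and C, so many of its genes have a near-identical partner whose reads may be divided or merged in counting.

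The files give identifiers without gene names, and 0 of the identifiers were found in the RefSeq gene table of the Da-Ae assembly. Products, functions, chromosomes and sequences of the 200 genes were therefore not analysed here, nor were cell type markers. All 200 had GSBRNA2T identifiers, and 0 had ENSRNA identifiers. Library totals ranged from 29144220 to 39558658 counts. The lowest count of any of the 200 genes in any library was 168.

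Within these genes too, HS4d replicate 3 was unlike the 2 other heated cultures. Across the 200 genes, log2 CPM in HS4d replicates 1 and 2 had a Pearson correlation of 0.963. HS4d replicate 3 had correlations of 0.53 and 0.488 with HS4d replicates 1 and 2. Its correlations with VM replicates 1, 2 and 3 were higher, at 0.691, 0.619 and 0.595. HS4d replicates 1 and 2 had correlations of 0.61 to 0.649 with the VM libraries. The VM libraries had correlations of 0.929 to 0.944 with one another. Spearman correlations of HS4d replicate 3 were 0.597 and 0.562 with HS4d replicates 1 and 2. With VM replicates 1, 2 and 3 they were 0.709, 0.638 and 0.593, so VM replicate 3 did not exceed HS4d replicate 1 by rank. These are correlations across genes of the same libraries, and genes are not independent replicates. The genes were also chosen on these same levels.

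The ratio that chose the genes fell away quickly along the list. It was 23.7 at place 1 and 7.39 at place 2, and it was at least 5 for 6 genes, at least 3 for 30 and at least 2 for 120. The other 80 genes had ratios under 2. The median was 2.13, against 0.22 over all 27678 ordered genes. The end of the list marks no step in the data. The ratios of the last 3 genes inside were 1.691, 1.685 and 1.683, and each of the first 3 outside had 1.678. Ratios above 1 were found for 847 ordered genes, of which the 200 make up 23.6%.

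**Figure D1:**
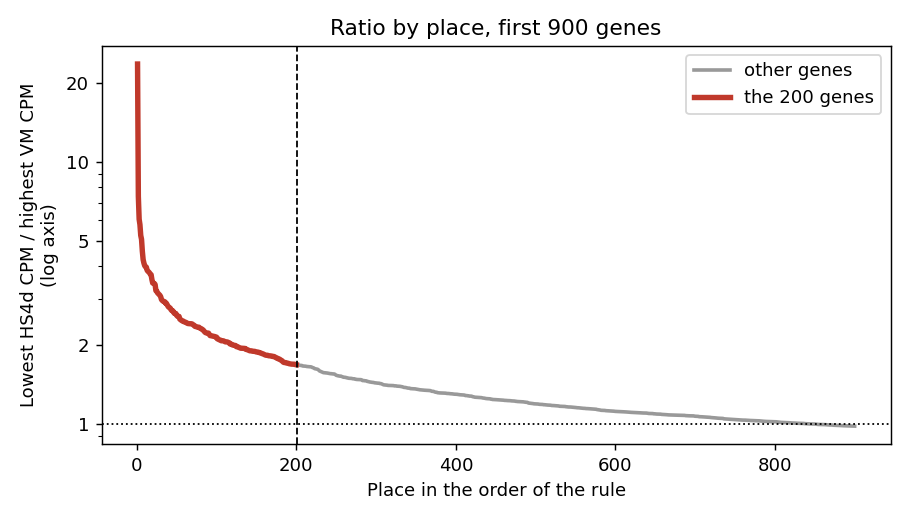
Ratio of the lowest HS4d CPM to the highest VM CPM (log axis) against place in the order, for the first 900 genes. The red part is the 200 genes, which run from 23.7 to 1.683, and the grey curve goes on without a step and crosses 1 (dotted) after place 847.

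The genes were of low to middling abundance in the microspores and several times higher in the heated cultures. Their median level was 39.3, 37.2 and 35.0 CPM in HS4d replicates 1, 2 and 3, against 11.1, 10.04 and 9.24 CPM in VM replicates 1, 2 and 3. By library totals, the 3 HS4d medians were close, with a mean of 37.2 CPM ± 2.14 (SD, n = 3). The VM medians had a mean of 10.1 CPM ± 0.919 (SD, n = 3). Similar CPM was not a similar standing. With rank 1 the highest, the median rank of the 200 was 2660, 2794.5 and 6398.5 in HS4d replicates 1, 2 and 3. The other genes with 5 CPM or more in each VM library had medians of 5.76, 6.04 and 12.9 CPM there. Single genes covered 12.5 to 1042 CPM in HS4d replicate 1, 11.6 to 1954 CPM in HS4d replicate 2 and 13.4 to 4464 CPM in HS4d replicate 3. In VM they covered 5.43 to 124 CPM in replicate 1, 5.11 to 112 CPM in replicate 2 and 5.09 to 120 CPM in replicate 3. The distributions of whole groups overlap, but for each single gene every HS4d library lay above every VM library. Among all genes with 5 CPM or more in each VM library, 3.08% showed this. The rule fixed it for the 200, and nothing is read from the difference.

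**Figure D2:**
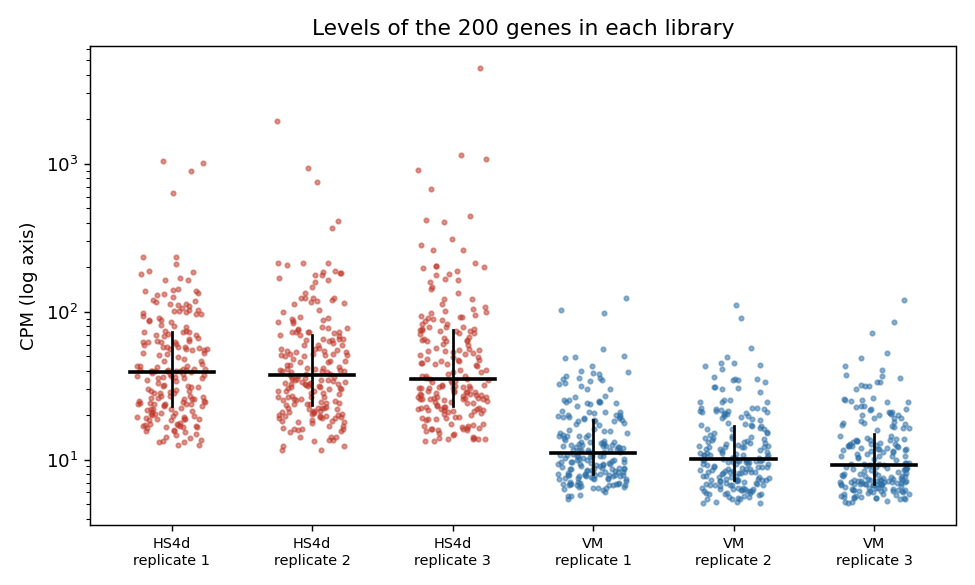
CPM of each of the 200 genes (points, log axis) in the 3 HS4d libraries (red) and the 3 VM libraries (blue), with the median (bar) and the quartiles (vertical line). The medians are 35.0 to 39.3 CPM in HS4d and 9.24 to 11.1 CPM in VM, and HS4d replicate 3 reaches the highest single value, 4464 CPM.

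Together the 200 genes took 1.42%, 1.49% and 2.04% of all counts in HS4d replicates 1, 2 and 3, against 0.321%, 0.291% and 0.275% in VM replicates 1, 2 and 3. The higher share of HS4d replicate 3 came mostly from the gene at place 12. Without that gene the shares were 1.35%, 1.44% and 1.59% in HS4d replicates 1, 2 and 3. The counts of the group were more concentrated in the heated cultures. This was not computed for other genes, and the rule chose on these same levels, so it is a description only. The 10 most abundant of the 200 held 34.0%, 36.7% and 49.8% of the group's counts in HS4d replicates 1, 2 and 3, against 20.3%, 19.3% and 20.8% in VM replicates 1, 2 and 3. By rank, 37, 34 and 26 of the 200 stood in the top 1000 of HS4d replicates 1, 2 and 3, and 0 did so in any VM library.

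Compared with the other 27496 genes that reached 5 CPM in each VM library, the 200 were low in the microspores. Their VM mean was from 5 to 10 CPM for 96 genes (48.0%), against 23.5% of the other genes. Only 4 (2.0%) had a VM mean of 50 CPM or more, against 15.4% of the others. A ratio with the VM level in its denominator favours low VM values, so this is a description of the choice. Within the list, the median ratio was 2.15 for VM means of 5 to 10 CPM, 2.10 for 10 to 20 CPM, 2.23 for 20 to 50 CPM and 1.91 for the 4 genes at 50 CPM or more. The highest ratio was 23.7, 7.39, 5.77 and 3.97 in these classes, which held 96, 67, 33 and 4 genes. A highest value tends to rise with the number of genes, so nothing is read from this order.

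The gene at place 1, GSBRNA2T00029634001, was far ahead of the rest. It stood at 233.6, 365.8 and 402.0 CPM in HS4d replicates 1, 2 and 3, against 9.88, 6.69 and 6.35 CPM in VM replicates 1, 2 and 3. All 3 heated cultures were high, and none came near a VM library. The means were 334 ± 88.7 CPM in HS4d and 7.64 ± 1.94 CPM in VM (SD, n = 3 each), a 43.7-fold difference.

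GSBRNA2T00036893001, at place 2, stood at 120.9, 115.5 and 204.5 CPM in HS4d replicates 1, 2 and 3, against 15.6, 10.9 and 12.3 CPM in VM replicates 1, 2 and 3. HS4d replicate 3 was the highest library, and VM replicate 1 the highest of its group. The means were 147 ± 49.9 CPM in HS4d and 12.95 ± 2.41 CPM in VM (SD, n = 3 each), an 11.3-fold difference.

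The next places were led by different cultures. The gene at place 3 stood at 186.7, 170.0 and 121.6 CPM in HS4d replicates 1, 2 and 3, against 20.1, 17.5 and 15.8 CPM in VM replicates 1, 2 and 3. At place 4, the levels were 142.2, 178.0 and 204.9 CPM in HS4d replicates 1, 2 and 3, against 23.6, 19.1 and 24.7 CPM in VM replicates 1, 2 and 3. At place 5, they were 97.5, 55.4 and 43.5 CPM in HS4d replicates 1, 2 and 3, against 8.30, 6.88 and 5.84 CPM in VM replicates 1, 2 and 3. HS4d replicate 3 was thus the lowest heated culture at places 3 and 5 and the highest at place 4.

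**Figure D3:**
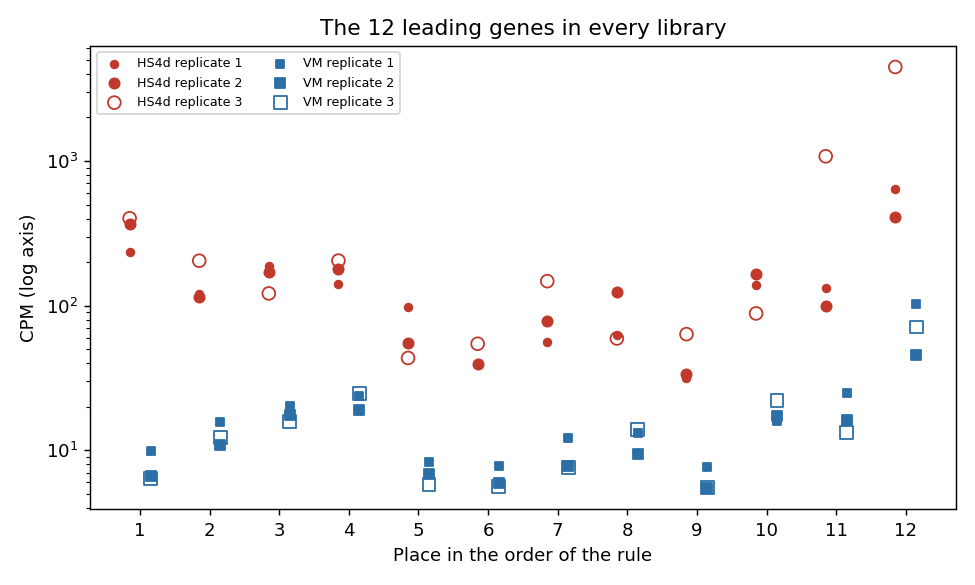
CPM (log axis) of the genes at places 1 to 12 in every library, with HS4d in red circles and VM in blue squares. Each gene keeps its red points above its blue ones, and HS4d replicate 3 (open circle) stands far above the other 2 heated cultures at places 11 and 12.

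By library totals, HS4d replicate 3 did not stand 2-fold apart from both other heated cultures for most of the 200 genes. For 152 genes (76.0%), HS4d replicate 3 was neither at least 2 times as high as both other HS4d libraries nor at most 0.5 times as high as both. The same held for 35.9% of the other genes with 5 CPM or more in each VM library. It held for 13 of the 96 genes (13.5%) that were newly switched on, with 10 CPM or more in each HS4d library and 3 counts or fewer over VM. The highest HS4d level was a median of 1.73 times the lowest among the 200, against 3.27 times among the other genes. The upper quartiles were 2.32 and 6.46 times. A rule on the lowest HS4d value passes over genes that are low in 1 culture, so this evenness is partly the choice. It also rests on the scaling. With TMM scaling, which sets libraries to equal levels over the bulk of genes, 97 genes (48.5%) met the same criterion, against 53.3% of the other genes, and HS4d replicate 3 was at most 0.5 times as high as both others for 93 of the 200 (46.5%).

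The most even gene, picked here for that after its values were seen, is at place 85. It stood at 54.9, 54.2 and 54.9 CPM in HS4d replicates 1, 2 and 3, against 24.1, 20.2 and 20.9 CPM in VM replicates 1, 2 and 3. The gene at place 185 had the highest level of the 200 in each VM library and a small difference. It stood at 233.4, 213.3 and 259.7 CPM in HS4d replicates 1, 2 and 3, against 124.2, 111.5 and 119.6 CPM in VM replicates 1, 2 and 3.

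By library totals, in 26 genes (13%), HS4d replicate 3 was at least 2 times as high as both other heated cultures. Their medians were 43.4, 41.2 and 149.7 CPM in HS4d replicates 1, 2 and 3, and the median of their VM means was 11.3 CPM. The gene at place 57 had the widest gap. It stood at 60.8, 51.9 and 1155 CPM in HS4d replicates 1, 2 and 3, against 18.5, 21.0 and 13.7 CPM in VM replicates 1, 2 and 3. Most abundant was the gene at place 12, at 636.4, 410.0 and 4464 CPM in HS4d replicates 1, 2 and 3, against 103.3, 45.4 and 71.3 CPM in VM replicates 1, 2 and 3. It alone made up 21.9% of the group's counts in HS4d replicate 3.

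By library totals, in 22 genes (11%), HS4d replicate 3 was at most 0.5 times as high as both other heated cultures. Their medians were 95.3, 74.9 and 23.9 CPM in HS4d replicates 1, 2 and 3, and the median of their VM means was 9.88 CPM. A trio of genes stood far out. The gene at place 121 had levels of 1005, 1954 and 18.9 CPM in the 3 HS4d libraries in order, against 9.43, 8.67 and 7.25 CPM in VM replicates 1, 2 and 3. The mean of HS4d replicates 1 and 2 was thus 78.5 times the level of HS4d replicate 3, which itself lay above every VM library. At place 28, a gene had 899.6, 936.9 and 25.5 CPM in HS4d replicates 1, 2 and 3, against 7.57, 8.16 and 7.22 CPM in VM replicates 1, 2 and 3. At place 76, another had 1042, 757.6 and 30.6 CPM in HS4d replicates 1, 2 and 3, against 12.2, 10.3 and 13.1 CPM in VM replicates 1, 2 and 3. For these genes a mean over the heated cultures describes none of them.

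**Figure D4:**
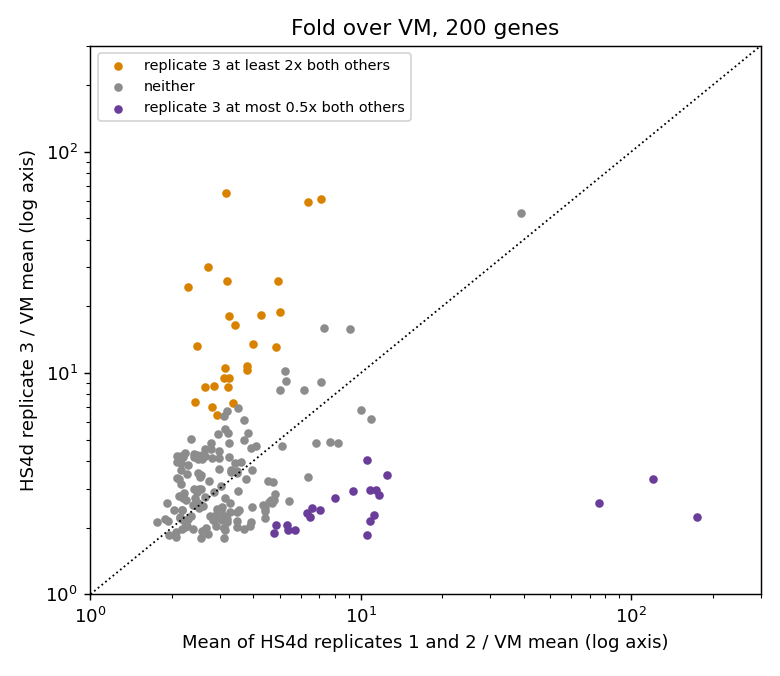
Fold over the VM mean of the 200 genes, with the mean of HS4d replicates 1 and 2 on the horizontal axis and HS4d replicate 3 on the vertical axis (both log), and the line of equal folds dotted. Levels are CPM by library totals. The 152 grey genes lie nearer the line than most of the 26 orange genes above it and the 22 purple genes below it, among which 3 have a fold above 50 in replicates 1 and 2.

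The median fold over the VM mean was 3.05, 3.11 and 2.996 in HS4d replicates 1, 2 and 3. At least 4-fold differences were found for 61, 58 and 72 genes in these libraries, and at least 10-fold differences for 10, 12 and 21 genes. The rule chose on these values and the counts were not made for other genes, so nothing is read from them. The other genes with 5 CPM or more in each VM library had a median log2 fold over the VM mean of -1.85, -1.77 and -0.467 in HS4d replicates 1, 2 and 3. The lowest HS4d value, which sets the ratio, came from HS4d replicate 1 for 49 genes, from replicate 2 for 68 and from replicate 3 for 83. Among the other genes with 5 CPM or more in each VM library, these shares were 44.5%, 36.1% and 19.4%.

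Within VM, replicate 1 tended to be the highest library. It had the highest VM level for 109 of the 200 genes, replicate 2 for 61 and replicate 3 for 30. Among the other genes, VM replicate 1 was the highest for 23.4%, replicate 2 for 42.7% and replicate 3 for 33.9%. The highest VM level was a median of 1.27 times the lowest among the 200, against 1.17 times among the other genes. VM replicate 1 thus lay, for most of the 200, on the side of the heated cultures, by a small amount against their distance. What this goes with was not tested.

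The values depend on how libraries are scaled, and the most abundant genes took very different shares of the libraries. The 90 genes in the top 100 of HS4d replicate 1 and also of replicate 2 took 35.0%, 36.9% and 0.39% of HS4d replicates 1, 2 and 3, against 0.123% to 0.169% of the VM libraries. TMM scaling widened the differences and parted the heated cultures. The median fold over the VM mean was then 7.74, 7.66 and 3.53 in HS4d replicates 1, 2 and 3, and HS4d replicate 3 was the lowest heated culture for 165 of the 200. All 200 genes kept every HS4d library above every VM library under TMM, under DESeq2 size factors and with library totals without the 90 genes. The choice by ratio left little room for another outcome. By library totals, this separation was found for 3.08% of all genes with 5 CPM or more in each VM library. That share was not computed under the other scalings. Of these 4 scalings, the 3 HS4d medians were close together with library totals only.

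In the fit across 56949 genes, all 200 passed the filter on low counts, and 200 of 200 were called higher in HS4d (p under 0.05 in edgeR's quasi-likelihood F test after Benjamini-Hochberg adjustment over all genes). Of all genes tested, 17.3% were called higher. The genes were chosen on this contrast, so nothing is read from the count. Their fitted log2 fold changes ran from 1.95 to 8.23 with a median of 2.83, against a median of 0.07 over all genes tested. GSBRNA2T00029634001 had a fitted log2 fold change of 6.46 ± 0.66 SE, and GSBRNA2T00036893001 had 4.46 ± 0.40 SE. The count of calls fell when a VM library was left out, to 89 without replicate 1, 66 without replicate 2 and 73 without replicate 3. The share of all genes called higher in those fits was 5.02%, 3.4% and 3.79%.

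The authors' deposited values from a variance-stabilising transformation (VST, a log2-like scale) cover all 200 genes in 5 libraries, with no column for HS4d replicate 3 in the copy used here. The median VST level of the 200 genes was 10.5 and 10.4 in HS4d replicates 1 and 2, against 7.67, 7.51 and 7.48 in VM replicates 1, 2 and 3. The median difference was 2.69, with a range from 1.82 to 8.35, against -0.05 over all 76486 rows of that table. Over the other genes with 5 CPM or more in each VM library, the median difference was -0.63.

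The choice was repeated with each library in turn left out of the floor and the ratio. The exclusion of genes in the top 100 of HS4d replicates 1 and 2 was kept, so these libraries still had that part in the choice when they were left out. With HS4d replicate 1 left out, 188 of the 200 genes were chosen again, and with HS4d replicate 2 left out, 181 were. In each case the left-out library lay above every VM library for 200 of the 200 genes then chosen. Of all genes with 5 CPM or more in each VM library, HS4d replicate 1 was above all VM libraries for 8.31% and HS4d replicate 2 for 8.24%. HS4d replicates 1 and 2 resemble each other closely, so the left-out library had a near copy in the choice.

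With HS4d replicate 3 left out, only 29 of the 200 genes were chosen again. Median levels of the genes then chosen were 113 CPM for HS4d replicate 1, 108 CPM for HS4d replicate 2 and 5.68 CPM for the left-out HS4d replicate 3, against a median VM mean of 9.76 CPM. In HS4d replicate 3, 58 of them (29.0%) were above all VM libraries and 128 (64.0%) were below all of them. Over the other genes these shares were 24.2% and 66.2%, close to those of the chosen genes. Over all genes with 5 CPM or more in each VM library, HS4d replicate 3 was above all VM libraries for 24.3%. Of the 6 choices that leave out 1 library, this one changed the list most. The choice without HS4d replicate 3 was also made anew on TMM-scaled CPM, which changes the genes as well as the scaling. For the 200 genes chosen that way, HS4d replicate 3 was above all VM libraries for 74 (37.0%), against 33.2% of the other 23800 genes.

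The opposite choice, on HS4d replicate 3 alone, kept 37 of the 200 genes. HS4d replicate 1 was above all VM libraries for 96 of the genes then chosen (48.0%), against 7.96% of the other genes. HS4d replicate 2 did so for 82 of them (41.0%), against 7.94%. Both did so for 80 of them. HS4d replicate 1 was below all VM libraries for 79 (39.5%) and HS4d replicate 2 for 95 (47.5%), against 89.2% and 89.1% of the other genes. Medians of the chosen genes were 13.4 and 10.97 CPM in HS4d replicates 1 and 2, against a median VM mean of 10.6 CPM. For 200 genes chosen anew on TMM-scaled CPM, the shares above all VM libraries were 76.5% and 72.5% in HS4d replicates 1 and 2. Of the other 23800 genes they were 31.0% and 31.9%. The same VM libraries serve for the choice and for the left-out library, so both sides share their errors, and no test was made.

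**Figure D5:**
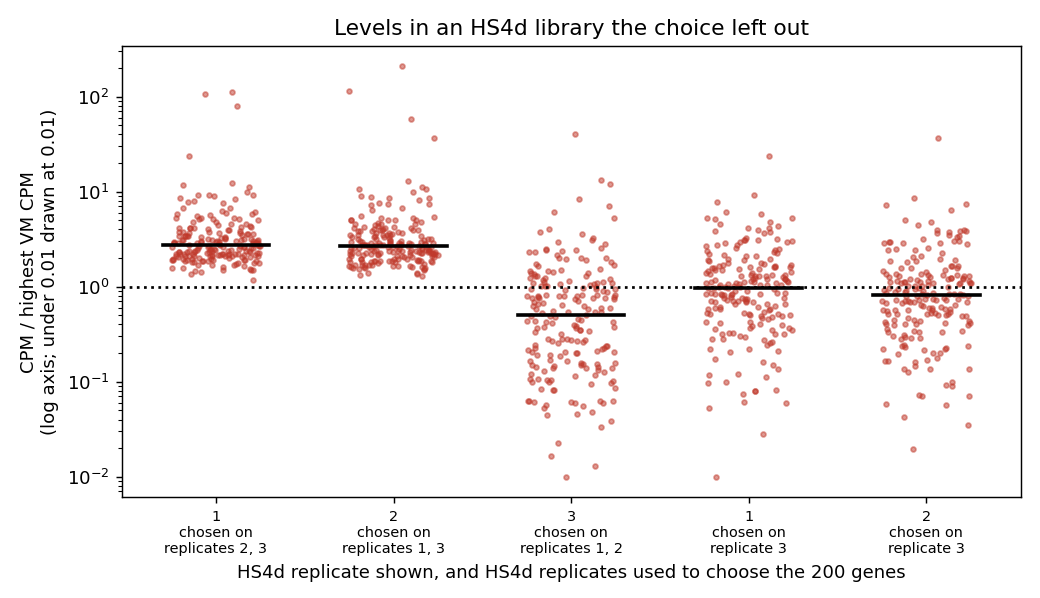
CPM divided by the highest VM CPM (log axis) in an HS4d library that was left out, for the 200 genes chosen without it, with the median as a bar and equality dotted. The median is 2.71 in replicate 1 and 2.66 in replicate 2 when only that library is left out, 0.498 in replicate 3, and 0.973 and 0.811 in replicates 1 and 2 when the genes are chosen on replicate 3 alone.

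Leaving out a VM library also changed the list far less than leaving out HS4d replicate 3. The choice without VM replicate 1, 2 or 3 kept 176, 181 or 169 of the 200 genes. The lowest HS4d level was above the left-out VM library for 200 of the 200 genes chosen each time, against 3.06%, 3.22% and 4.4% of the other genes ordered. The genes then chosen had ratios of at least 1.87, 1.78 and 1.83 over the VM libraries kept. The VM libraries differ little, with a median of 1.27 times between highest and lowest among the 200. This outcome was thus all but fixed by the choice, and nothing is read from it.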

How the data were processed

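RNA sequencing libraries of 3 HS4d and 3 VM samples were compared. The authors deposited raw counts per gene, and log2-like VST values for 5 libraries in the copy used here. The submitters' processing notes name fastp 0.22.0, HISAT2 and DESeq2. How reads were counted, and on which build and annotation, is not given in the sources used here. The libraries were non-directional, per the labels' protocols, so a gene's reads cannot be told apart from those of an antisense partner.

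From the deposited counts, CPM over library totals gave the choice of genes. HS4d was tested against VM with edgeR 4.0.16 in R 4.3.3 (filterByExpr with a minimum count of 10, TMM, quasi-likelihood F test, group as the only term, Benjamini-Hochberg over all genes tested). SE is the size of the log2 fold change over the root of its F statistic. Alternatives used limma 3.58.1 (voom) and DESeq2 1.42.0. The test was also run on simulated data, with an outcome not reported here. That simulation gave all libraries of a group the same mean for a gene, so it did not model a culture apart from its group. The genes and alternatives were chosen with earlier results of these data known. Identifiers are printed for the 2 genes with the largest ratio, as the rule for named genes set, and others are given by place. The planned gene lists need gene names and were not analysed here.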

Additional observations from a re-analysis of the deposited data

How the results depend on the processing

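Membership of the list depended on the settings of its rule. Of the 200 genes, 53 were chosen again with a floor of 2 CPM, 83 with a floor of 10 CPM, 45 with the ratio of group means and 98 with TMM-scaled CPM, where 24000 genes in place of 27678 passed the floor and were ordered. Leaving out 1 library gave 29 to 188 genes chosen again, the lowest without HS4d replicate 3. Among the alternatives added after seeing the data, DESeq2 size factors kept 83 (with 22514 genes ordered, so that the floor moved too), HS4d replicate 3 as the only HS4d library kept 37, and totals without the 90 leading genes kept 151. The count called higher was 66 to 200 with 1 library left out, the lowest without VM replicate 2. The share of all genes called higher was 3.4% to 35.5% in those fits, the highest without HS4d replicate 3. The median fitted log2 fold change was 2.64 to 3.01 in those fits and 1.79 with library size alone, which moved the median of all tested genes from 0.07 to -0.78. Relative to that median the 200 genes stood at 2.56 with library size alone, against 2.75 with TMM. The fitted value was above 0 for all 200 genes in each of the fits run, which the choice of the genes all but fixed.

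Deviations of same-numbered libraries from their group means had correlations of -0.012, -0.035 and -0.036 for numbers 1, 2 and 3. These are over all 56949 genes tested, in TMM-scaled log2 CPM. HS4d replicates 1 and 2 were close to each other and apart from replicate 3, so this check says little about pairing by number. With the replicate block, 117 of the 200 genes were called higher, with 5.82% of all genes tested. DESeq2 gave 199 calls and no adjusted p for 1 gene, with 25.1% of all genes tested called higher. The limma-voom fit gave 194, with 12.3% of all genes tested. Both named genes stayed called in all 12 alternative fits. They were picked for the largest ratios on this contrast, so nothing is read from that. Their highest adjusted p in edgeR's quasi-likelihood F test was 0.044, for GSBRNA2T00029634001 without VM replicate 2. The causes of the shifts between fits were not tested. With 3 libraries a group, tests for a sample far from the others were not made.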
